A study of Homo sapiens with 30 samples.

Results

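The genes described here are 37 members of the ATF4 amino acid stress response, chosen by name from 61551 genes listed in a pair of count tables. They comprise 9 regulators, 6 amino acid transporters, 6 enzymes grouped as amino acid synthesis and 8 genes of tRNA charging and export. A further 8 are other effectors, of signalling, translation and protein folding. PCK2 is in the synthesis group, although it makes phosphoenolpyruvate and not an amino acid. The 30 RNA-seq libraries came from 3 cell lines of human acute myeloid leukemia (AML), in 10 groups of 3. In the miR-1 table (12 libraries), MV4-11 and Molm-14 cells carried a GFP lentivirus with MIR1-2 host gene sequence (OE) or the GFP vector without it (EV). In the MPC1 table (18 libraries), a GFP-marked lentiviral CRISPR/Cas9 construct with 1 guide against MPC1 (KO), or its empty vector (EV), was put into THP-1 as well as MV4-11 and Molm-14. MPC1 encodes a subunit of the mitochondrial pyruvate carrier. MV4-11 and Molm-14 carry an internal tandem duplication of FLT3, and THP-1 does not. All cells grew in RPMI with serum, L-glutamine, non-essential amino acids, sodium pyruvate and beta-mercaptoethanol. The EV cells of every group carried a lentiviral vector. Nutrient levels at harvest are not given in the sources. The sources do not say whether replicates were separate infections, clones or cultures, and p-values measure only the spread between these libraries.

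ATF4 is a transcription factor whose mRNA is translated better when eIF2 is phosphorylated by kinases that sense amino acid shortage, unfolded protein, heme shortage or viral RNA. With C/EBP partners it binds composite DNA elements and raises genes that import amino acids, make them and load them onto tRNA. The same program holds its own brakes, among them TRIB3, which restrains ATF4, and PPP1R15A, which brings a phosphatase to eIF2. In leukemia cells this response is known for supporting survival when nutrients run low, and with its partner DDIT3 (CHOP) also for cell death under prolonged stress.

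The core of the C/EBP-ATF element, TGATGNAA, was searched on both strands of RefSeq promoters (250 bases before to 50 after the gene start, GRCh38.p14), because it is the site by which ATF4 is known to reach its targets. Of the 37 members, 33 had a promoter entry, and NUPR1, SLC7A11, PYCR1 and EIF4EBP1 had none. The motif was in 9 of 33 member promoters (27.3%) and in 1003 of 27305 promoters in all (3.67%). The longer form TGATGCAAT was in 0 of 33 (0.264% of all promoters). The endoplasmic reticulum stress element, searched by its consensus, was also in 0 of 33 (0.0806% of all promoters). The 9 matches are printed on the gene's strand with the motif, or its reverse complement, in capitals. A match is a description of these letters and was not tested for binding.
ATF3, chr1:212565206-212565233, plus strand: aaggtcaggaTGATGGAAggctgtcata
CHAC1, chr15:40953252-40953279, plus strand: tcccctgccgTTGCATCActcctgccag
HERPUD1, chr16:56931956-56931983, plus strand: acgcggcgggTTGCATCAgcccgtgccc
SLC3A2, chr11:62881726-62881748, plus strand: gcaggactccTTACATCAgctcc
SLC7A1, chr13:29595664-29595691, minus strand: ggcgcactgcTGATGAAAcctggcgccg
ASNS, chr7:97872459-97872486, minus strand: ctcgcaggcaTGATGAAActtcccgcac
AARS1, chr16:70289676-70289703, minus strand: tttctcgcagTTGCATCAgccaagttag
NARS1, chr18:57621805-57621832, minus strand: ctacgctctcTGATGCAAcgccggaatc
MARS1, chr12:57488054-57488081, plus strand: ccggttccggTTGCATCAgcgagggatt

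The overexpressed miRNA is shown because its seed can be compared with the members' 3′ UTRs. The mature miR-1-3p is printed from RefSeq with its seed, bases 2 to 8, in capitals. In GENCODE 44 3′ UTRs (GRCh38), 5 of 37 members (13.5%) held a match to the seed and 11.7% of all genes did. An 8mer, the seed match followed by A, was in 3 of 37 members (8.11%) and in 4.82% of all genes. The sites are printed on the gene's strand with the match in capitals, and they are sequence matches only. ASNS is asparagine synthetase, VLDLR a lipoprotein receptor, SLC7A11 the cystine importer, STC2 a secreted glycoprotein and SARS1 the seryl-tRNA synthetase.
miR-1-3p: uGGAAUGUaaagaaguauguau
SLC7A11, chr4:138164573-138164596, minus strand: ctgcatccACATTCCAatcatatt
VLDLR, chr9:2659462-2659485, plus strand: gacgctagACATTCCAgaattatt
STC2, chr5:173317774-173317797, minus strand: atctatggACATTCCAaaacattt
STC2, chr5:173315270-173315293, minus strand: gaaggtccACATTCCtgcaagcat
ASNS, chr7:97851861-97851884, minus strand: ttctgcctACATTCCtaacagctg
SARS1, chr1:109237889-109237904, plus strand: ACATTCCtgcctccct

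Libraries held 15543301 to 20939985 counts in the miR-1 table and 5339360 to 9106478 in the MPC1 table, and no level was compared between the tables. MIR133A1HG, the host gene of MIR1-2, had 44, 50 and 73 counts in MV4-11 OE, 60, 44 and 34 in Molm-14 OE, and 0 in every EV library. MPC1 read 23.5 to 58.8 CPM (counts scaled to a common library size) in KO libraries and 53.5 to 100.04 in EV libraries, and it was lower in all 3 KO libraries of each line than in the EV libraries of that line. Of 9 myeloid markers, 0 or 1 were without counts in any library, whereas 5 to 10 of 12 markers of other lineages were at 0 and the 11 besides PECAM1 summed to 4 to 20 counts per library.

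Levels between genes were compared as CPM per kb of exon in the EV groups. The length was that of all annotated exons of a gene together, not of a transcript. It was 880 bases for EIF4EBP1, 2613 for ATF4 and 17366 for GARS1. Genes with much annotated exon sequence are placed lower by this measure. The order of genes given here therefore depends on the annotation as well as on the counts. In the MPC1 table, EPRS1, the glutamyl-prolyl-tRNA synthetase, led in Molm-14 (280 ± 10, SD, n = 3) and THP-1 (225 ± 19), whereas EIF4EBP1, the repressor of cap-dependent translation, led in MV4-11 (147 ± 21). ATF4 mRNA was among the 4 highest members per kb in each of the 3 lines, at 60.2 ± 7.3 in MV4-11, 148 ± 13 in Molm-14 and 66.2 ± 6.3 in THP-1. CHAC1, a glutathione-degrading enzyme, and ATF3, a stress-induced repressor, stayed at or under 2.37 CPM per kb in all 3. In Molm-14, DDIT4, an inhibitor of mTORC1, reached 103 ± 7.1 CPM per kb, but in MV4-11 it was at 3.03 ± 0.48 and in THP-1 at 2.67 ± 0.67.

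Most members were lower in MV4-11 than in Molm-14 EV cells in the MPC1 table. By edgeR's quasi-likelihood test, 34 of 37 members differed between the EV groups, 30 lower and 4 higher in MV4-11, at a false discovery rate (FDR, Benjamini-Hochberg) under 5%. Of all tested genes, 61.7% differed, 31.6% lower and 30.1% higher. The median log2 difference was -1.10 over the members and -1.10 with STC2 at its bound. In bulk RNA, fewer cells expressing a gene and less RNA per cell cannot be told apart. Every one of the 6 synthesis enzymes and 8 tRNA genes was lower, as were 6 of 8 other effectors, 6 of 9 regulators and 4 of 6 transporters.

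Among the regulators, ATF4 read 177, 139 and 156 CPM in MV4-11 EV and 421, 352 and 389 in Molm-14 EV. No MV4-11 library reached the lowest Molm-14 library, and the log2 difference was -1.30 (SE 0.094, edgeR FDR 2.21e-12). TRIB3, the pseudokinase brake on ATF4, read 8.46, 7.52 and 6.62 CPM against 47.0, 42.3 and 47.5, a log2 difference of -2.58. DDIT3, whose exons overlap MARS1 on the opposite strand by 355 bases, was lower by a smaller margin, with 15.98, 12.6 and 13.8 CPM in MV4-11 and 31.4, 25.6 and 26.7 in Molm-14 (log2 difference -0.97). The exception was CEBPB, a C/EBP factor of myeloid cells, which was higher in MV4-11 (42.9, 30.1 and 39.4 CPM against 11.9, 11.7 and 10.002, log2 difference 1.74). ATF5 and CEBPG did not pass.

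The widest gaps lay outside the regulators. DDIT4 read 7.41, 5.37 and 6.46 CPM in MV4-11 EV and 231, 202 and 223 in Molm-14 EV, a log2 difference of -5.08. STC2 had 0 counts in all 3 MV4-11 EV libraries and a mean of 10.8 CPM in Molm-14 EV, which was at least 81.3-fold higher than the floor of 3 counts over the MV4-11 group (0.133 CPM). NUPR1, SLC6A9 and CBS had 2, 2 and 3 counts in the whole MV4-11 EV group and 15, 29 and 61 in Molm-14 EV, so no fold is given. CBS counts are uncertain in any group because of its near-identical copy CBSL. These 4 genes passed the count filter only through other groups and are among the 30 counted as lower. Without them, 26 of 33 members were lower and 4 higher, with a median of -0.966, and the synthesis enzymes were lower in 5 of 5 cases.

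SLC7A11, which imports cystine for glutathione, read 9.38, 8.19 and 7.85 CPM in MV4-11 and 119, 143 and 125 in Molm-14 (log2 difference -3.92). PCK2, the mitochondrial PEP carboxykinase, read 4.98, 3.22 and 6.31 CPM against 51.7, 51.0 and 42.9 (log2 difference -3.33). In both genes the MV4-11 libraries were far under the lowest Molm-14 library. ASNS read 28.0, 24.3 and 25.4 CPM against 94.3, 87.7 and 88.3 (log2 difference -1.79), and CTH, which makes cysteine, had a log2 difference of -2.58. CHAC1 was lower with few reads behind it (0.695, 1.48 and 0.308 CPM against 5.71, 5.05 and 3.82, log2 difference -2.50).

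By role, the median log2 difference was -2.19 for the synthesis enzymes, -1.15 for the regulators, -0.919 for the other effectors and -0.797 for the transporters. The tRNA genes, with a median of -0.902, all differed in 1 direction. EPRS1 was lowest relative to Molm-14 (488, 486 and 459 CPM against 1492, 1436 and 1546, log2 difference -1.64), followed by MARS1, the methionyl-tRNA synthetase (log2 difference -1.41). The smallest difference was in SARS1 (log2 difference -0.20, edgeR FDR 0.0377). PPP1R15A (log2 difference 1.08), HERPUD1, an endoplasmic reticulum membrane protein of protein degradation (0.43), and SLC1A4, a neutral amino acid transporter (0.51), were the members besides CEBPB that were higher in MV4-11.

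**Figure D1:**
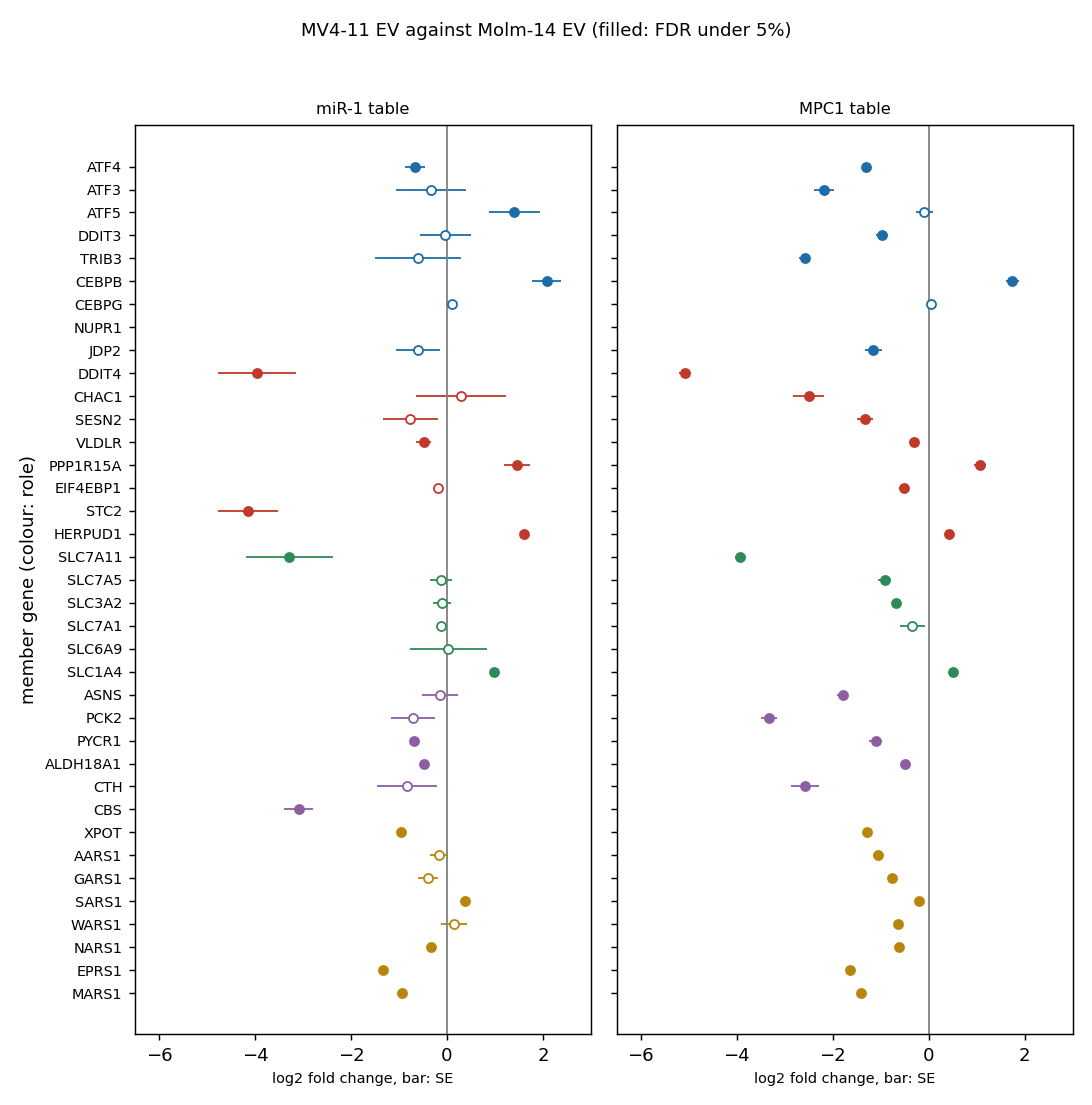
Log2 fold change of each member in MV4-11 EV against Molm-14 EV (x axis, bar: SE), in the miR-1 table (left) and the MPC1 table (right), with filled points for an FDR under 5% and colour for the role (blue regulators, red other effectors, green transporters, purple synthesis, gold tRNA). Most points of the right panel lie left of 0, CEBPB, PPP1R15A, HERPUD1 and SLC1A4 lie right of it in both panels, and genes with 3 or fewer counts in a group are not drawn.

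THP-1 EV cells were lower than Molm-14 for most members and lay on both sides of MV4-11. Both THP-1 contrasts reuse EV groups of the contrast above, so they are given side by side and not as independent evidence. Against Molm-14, 5 members were higher and 25 lower in THP-1 (69.6% of all genes differed, 35.5% higher and 34.1% lower), with a median log2 difference of -0.84. Against MV4-11, 12 were higher and 14 lower (67.5% of all genes differed, 34.6% higher and 32.9% lower), with a median of 0.06. The 12 include NUPR1, STC2 and CBS, which had too few counts in MV4-11 EV for a fold and passed the count filter only through other groups. ATF4 in THP-1 (186, 179 and 154 CPM) was lower than in Molm-14 (log2 difference -1.16), and its difference from MV4-11 did not pass (0.14).

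DDIT3 and TRIB3 were higher in THP-1 than in both other lines. DDIT3 read 47.6, 38.2 and 35.0 CPM in THP-1 EV, above every EV library of both other lines, with log2 differences of 0.54 against Molm-14 and 1.51 against MV4-11. TRIB3 read 56.6, 55.0 and 54.2 CPM, also above both (0.28 and 2.86). SLC7A11 (114, 122 and 118 CPM) was at 3.79 against MV4-11 on the log2 scale and did not pass against Molm-14 (-0.13).

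Other members were low in THP-1. ASNS (12.2, 17.7 and 10.8 CPM) was under both lines, with log2 differences of -2.72 against Molm-14 and -0.92 against MV4-11. SLC7A5, which imports leucine together with SLC3A2, was likewise under both (-2.23 and -1.31), and ALDH18A1, which starts proline synthesis, too (-1.72 and -1.23). DDIT4 was at 6.23, 4.03 and 6.68 CPM, -5.28 against Molm-14. VLDLR stood out in the other direction, at 203, 213 and 219.8 CPM, with log2 differences of 1.37 and 1.68. NUPR1, a stress-induced chromatin protein, had 58 counts over THP-1 EV and was higher than in Molm-14 (2.10).

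**Figure D2:**
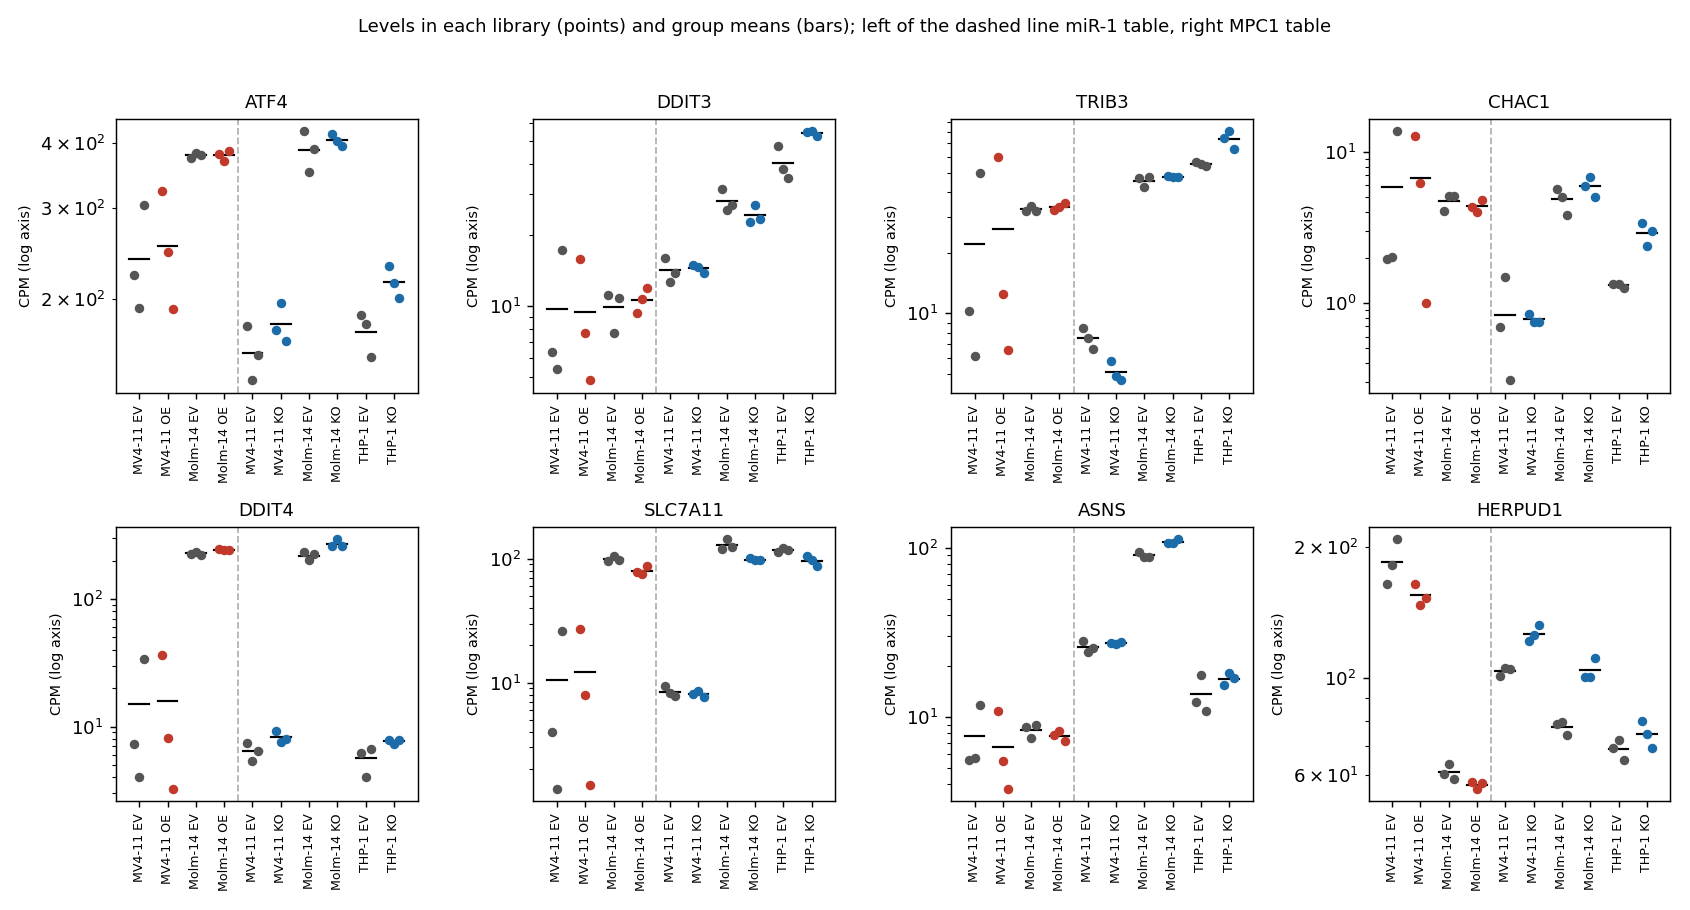
CPM on a log axis (points: libraries, bars: group means of 3) for 8 members in the 10 groups (grey EV, red OE, blue KO), miR-1 table left of the dashed line and MPC1 table right of it. For TRIB3, DDIT4 and SLC7A11, 1 library of each MV4-11 group of the miR-1 table sits far above the other libraries of its group, and the Molm-14 libraries lie close together.

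In the miR-1 table, the MV4-11 libraries differed among themselves more than between vectors. DDIT4 read 7.29, 3.998 and 33.8 CPM in EV replicates 1 to 3 and 36.3, 8.15 and 3.27 CPM in OE replicates 1 to 3. TRIB3 read 10.3, 6.12 and 49.7 CPM in EV and 59.9, 12.5 and 6.55 in OE. SLC7A11 read 3.99, 1.40 and 26.3 CPM in EV and 27.2, 7.996 and 1.498 in OE. In each of these genes EV replicate 3 and OE replicate 1 were the 2 highest libraries, 1 from each vector, and the groups overlapped.

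The same libraries were the 2 highest of the 6 for 32 of 36 tested members (88.9%), against 15.8% of all tested genes. The exceptions were PYCR1 and ALDH18A1 of proline synthesis, HERPUD1 and SARS1. ALDH18A1 ran the other way, at 99.3 CPM in EV 3 and 99.4 in OE 1, its 2 lowest libraries, and 115 to 123 in the others. ATF4 mRNA read 222, 192 and 304 CPM in EV and 322, 246 and 191 in OE. Its highest library was 1.69 times its lowest, a ratio that 16 of the 35 members with a mean of at least 1 CPM were under and 18 were over. DDIT3 read 6.36, 5.39 and 17.2 CPM in EV and 15.7, 7.69 and 4.83 in OE, and CHAC1 1.97, 2.02 and 13.7 in EV and 12.8, 6.24 and 0.999 in OE.

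Taking the 6 MV4-11 libraries without regard to vector, the ratio of the highest to the lowest CPM was over 2 in 14 of 35 members with a mean of at least 1 CPM (40%), and in 6.03% of all genes. Its median was 3.41 over 8 regulators (1.25 to 9.79), 3.16 over the synthesis enzymes (1.24 to 5.16), 1.85 over 7 other effectors (1.36 to 13.7), 1.72 over the transporters (1.27 to 19.5) and 1.31 over the tRNA genes (1.17 to 1.99). Of these 35, SLC7A11 had the widest range, and AARS1, GARS1 and the other tRNA genes stayed under 2. In the Molm-14 libraries of that table the ratio was over 2 in 0 of 36 members (2.7% of all genes), with a median of 1.14. In the MPC1 table it was over 2 in 2 of 32 members in MV4-11 (9.28% of all genes), 0 of 36 in Molm-14 (9.42%) and 2 of 35 in THP-1 (10.5%).

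**Figure D3:**
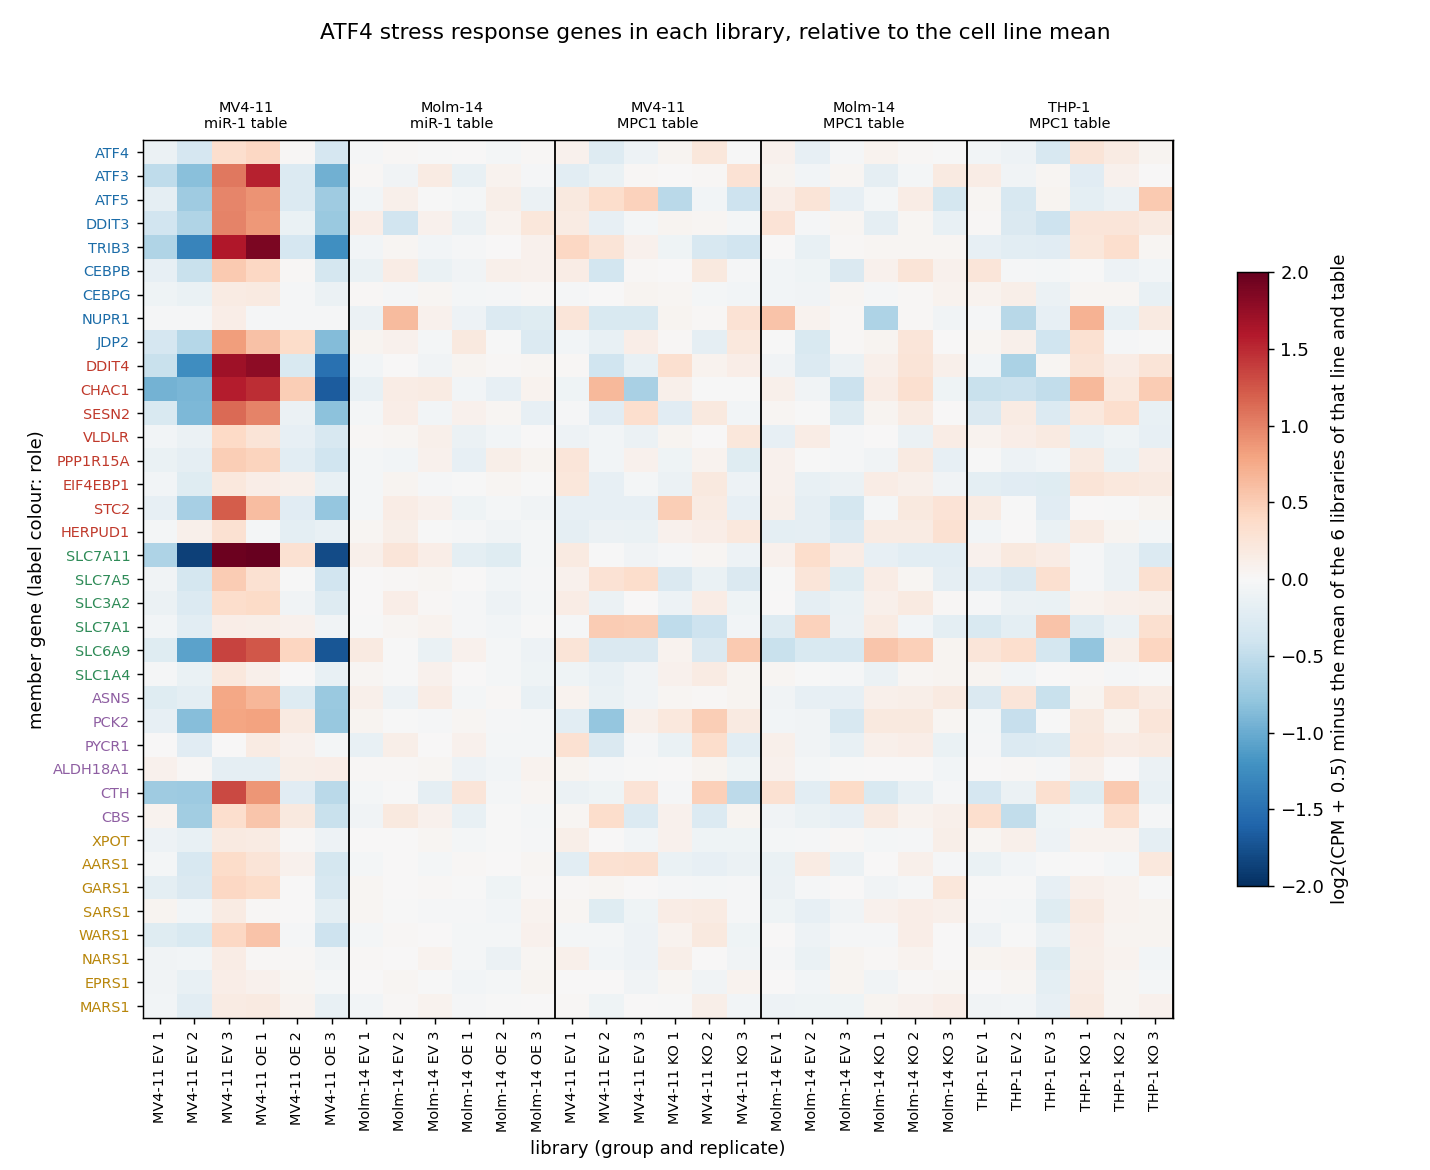
Log2(CPM + 0.5) of each member (rows, coloured by role as in the fold-change plot) in each library (columns), minus the mean of the 6 libraries of that line and table, from -2 (blue) to 2 (red). The columns of MV4-11 EV 3 and OE 1 in the miR-1 table are red for most members, and the Molm-14 columns are nearly white.

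Other genes moved with these 2 libraries, and their part in the members' spread was not tested. The mean log2(CPM + 0.5) of 16 further ATF4 targets was 4.99, 4.71 and 5.74 in EV 1 to 3 and 5.74, 5.21 and 4.65 in OE 1 to 3. That of 23 interferon-stimulated genes was 1.04, 0.911 and 2.59 in EV and 4.48, 1.08 and 0.964 in OE, so that it was highest in OE 1, and their summed level ran from 166 to 914 CPM with 1 to 7 of the 23 at 0. WARS1, a member, is itself known to be induced by interferon, and EV 3 (261 CPM) and OE 1 (292 CPM) were its 2 highest libraries. Immediate-early genes (11 listed) had means of 4.39 in EV 3 and 4.30 in OE 1 and 3.49 to 3.75 in the others. Summed over 9 myeloid markers, none of them at 0, EV 3 and OE 1 had 1264 and 1229 CPM and the other 4 libraries 1580 to 1962. As a mean log2(CPM + 0.5), the same markers were at 5.71 in both and at 5.64 to 5.82 in the other 4. Summed over 12 markers of other cell types, EV 3 and OE 1 had 89.4 and 90.9 CPM and the others 53.9 to 69.3. Of the 12, 9 were at 0 in both and 7 to 10 in the others. The 11 besides PECAM1 summed to 4 to 20 counts per library, so these sums were nearly all PECAM1. The mean log2(CPM + 0.5) of the 12 was -0.237 in EV 3 and -0.273 in OE 1, and -0.335 to -0.2365 in the others. The 2 libraries had the smallest totals of the 6 (16642997 and 16117779 counts), and their mitochondrial share (3.4% and 2.72%) was the lowest of the 6. The 17 genes of the eIF2 kinases and the eIF2 cycle stayed between 6.21 and 6.35. A list of 16 other genes of the cytosolic tRNA synthetases and their complex stayed between 6.998 and 7.14. It includes AIMP1, AIMP2 and EEF1E1, which belong to the complex and are not synthetases.

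The MV4-11 and Molm-14 baselines of the miR-1 table carry this spread. With all libraries, 18 of 36 members differed, 6 higher and 12 lower in MV4-11 (64.8% of all genes differed, 32.9% higher and 31.9% lower). Without EV 3 and OE 1, an alternative chosen after seeing the data, 31 differed, 6 higher and 25 lower. The share of all genes that differed in that fit is not given here, so the rise is not read as a result about the members. EV 3 and OE 1 were the 2 highest MV4-11 libraries for 32 of 36 members. Lower MV4-11 EV levels without them therefore follow from the choice, and so do smaller spreads. DDIT4 was at a log2 difference of -3.96 (SE 0.820) with them and -5.36 (SE 0.269) without, SLC7A11 at -3.28 and -5.26, STC2 at -4.14 and -5.80, and CBS at -3.09 and -3.46. STC2 and CBS had means of 0.578 and 1.09 CPM over the MV4-11 libraries of that table, so their folds rest on few counts. TRIB3 was at -0.60 and did not pass with them, and was at -2.02 without them. ATF4 was at -0.66 (edgeR FDR 0.0197) and -0.87. ASNS did not pass with them (-0.14) and was at -0.57 without them, while CHAC1 passed in neither fit (0.29 and -1.25).

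Calls in the 2 tables can be set side by side, since they rest on different libraries. CEBPB, SLC1A4, PPP1R15A and HERPUD1 were higher in MV4-11 in both, and 12 members were lower in both: ATF4, DDIT4, VLDLR, SLC7A11, STC2, PYCR1, ALDH18A1, CBS, XPOT, NARS1, EPRS1 and MARS1. SARS1 was higher in MV4-11 in the miR-1 table (log2 difference 0.38) and lower in the MPC1 table, and ATF5 was higher in the miR-1 table alone (1.41, edgeR FDR 0.0445). That ATF5 call was lost without MV4-11 EV 3 (0.78), MV4-11 EV 1 (1.56) or any 1 of the Molm-14 EV libraries (1.38 to 1.45). A further 16 members were lower in the MPC1 table only. STC2 and CBS of the 12, and SLC6A9 of the 16, had too few counts in MV4-11 EV of the MPC1 table for a measured fold. The share of all genes called alike in both tables is not given here, so these counts are not read as a result about the members. ASNS is read with a limit, because it shares 2415 exonic bases with a same-strand lncRNA (ENSG00000284707) that the miR-1 table lists, at 104 to 248 counts per library against 68 to 199 for ASNS, and the MPC1 table does not; its part in the ASNS counts was not tested.

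For miR-1 overexpression, no member passed edgeR's quasi-likelihood test in either line in the filtered model of all 12 libraries. In MV4-11, 0 of 36 members passed (0.177% of all genes, 0.0513% higher and 0.125% lower), 1 had an unadjusted p under 0.05 (5.9% of all genes), and DESeq2 called 0. The median log2 fold change was 0.041 over the members and 0.00693 over all genes, with 22 members positive and 14 negative. Single libraries decided that value: the members' median was -0.212 without OE 1, -0.163 without EV 2, -0.0548 without EV 1, 0.161 without OE 3 and 0.267 without EV 3. In Molm-14, 0 of 36 passed (0.0057% of all genes), 0 had an unadjusted p under 0.05 (4.38%), and DESeq2 called 0. The median was -0.0329, with 11 positive and 25 negative. The difference of the OE effect between the lines passed for 0 of 36 members in edgeR (0.0456% of all genes, 0.0114% higher and 0.0342% lower), with 0 at an unadjusted p under 0.05 (5.3% of all genes) and 0 by DESeq2.

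HERPUD1 had the smallest p in both lines. It read 164, 182 and 208 CPM in MV4-11 EV and 164, 147 and 153 in OE, a log2 change of -0.25 (edgeR FDR 0.198, SE 0.067). It was the 1 member of 36 whose MV4-11 groups did not overlap (9.17% of all genes, 5.06% higher in OE), although the nearest libraries of the 2 groups were both at 164 CPM. With no filter on low counts it passed (-0.26, edgeR FDR 0.00577). In Molm-14 it read 60.4, 63.7 and 59.0 CPM in EV and 57.8, 56.0 and 57.5 in OE, a log2 fold change of -0.10 that did not pass. PYCR1 (0.15) and SARS1 (-0.11) followed in MV4-11, and NARS1 (-0.07) and SLC1A4 (-0.08) in Molm-14, and none passed.

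ATF4 read 374, 383 and 378 CPM in Molm-14 EV and 381, 369 and 386 in OE, and its log2 fold change was 0.00 (SE 0.204) there and 0.08 (SE 0.205) in MV4-11. DDIT3 was at 0.11 in Molm-14 and -0.03 in MV4-11, TRIB3 at 0.04 and 0.26, CHAC1 at -0.12 and 0.19, and ASNS at -0.11 and -0.20. Leaving out 1 library turned the sign of each of these MV4-11 values, with ranges of -0.12 to 0.29 for ATF4, -0.60 to 0.68 for DDIT3, -1.17 to 1.68 for TRIB3, -0.66 to 1.73 for CHAC1 and -0.71 to 0.24 for ASNS. The standard errors of TRIB3 (0.875 in Molm-14, 0.908 in MV4-11) come from a model that takes 1 spread per gene from both lines, and DDIT4, SLC7A11 and CHAC1 had SEs of 0.670 to 1.03 in it.

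Without the MV4-11 libraries in the model, 1 member passed in Molm-14. The share of all genes that passed in that fit is not given here, so the call is not set against a background. SLC7A11 read 95.4, 105 and 98.0 CPM in EV and 77.9, 75.5 and 87.3 in OE, with every OE library under the lowest EV library. Its log2 fold change was -0.31 in both fits, with an SE of 0.767 and an FDR of 1 in the shared model and an SE of 0.047 and an edgeR FDR of 1.29e-05 when only the 6 Molm-14 libraries were fitted. In MV4-11 its log2 fold change was 0.23 with an SE of 1.03. Across the 36 members, 6 were lower in all Molm-14 OE libraries (16.7%, against 7.07% of all genes) and 1 higher (7.8% of all genes). The 6 were SLC7A11, the transporters SLC3A2 and SLC7A1, VLDLR, XPOT, which exports tRNA from the nucleus, and HERPUD1. The 1 that was higher was DDIT4 (226, 235 and 223 CPM in EV, 245, 239.7 and 241 in OE).

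In Molm-14 OE, 25 of 36 members had negative fold changes, as did the 5 with a seed match to miR-1, with SLC7A11 at -0.31, STC2 at -0.14, ASNS at -0.11, VLDLR at -0.10 and SARS1 at -0.01. VLDLR read 90.7, 92.0 and 95.6 CPM in EV and 82.6, 86.5 and 90.2 in OE, and its groups did not overlap. In MV4-11 the values were 0.23, -0.67, -0.20, -0.15 and -0.11 in the same gene order. STC2 had a mean of 0.578 CPM over the MV4-11 libraries, so its value rests on few counts. None of the 5 passed in either line in the model of all 12 libraries.

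MPC1 knockout changed few members, and HERPUD1 was the 1 that passed in both MV4-11 and Molm-14. In MV4-11, 3 of 37 passed in edgeR (5.41% of all genes), 1 higher (3.17% of all genes) and 2 lower (2.24%), and 12 had an unadjusted p under 0.05 (22.3% of all genes). TRIB3 read 8.46, 7.52 and 6.62 CPM in EV and 5.82, 4.88 and 4.64 in KO, with no overlap, a log2 change of -0.57 (edgeR FDR 0.0300, SE 0.155). ATF5, an ATF4-related factor of mitochondrial stress, fell from 12.5, 14.1 and 15.2 CPM to 7.38, 10.5 and 8.03, a log2 change of -0.68 (edgeR FDR 0.0344, SE 0.189). HERPUD1 rose from 101, 106 and 105 CPM to 122, 126 and 132, a log2 change of 0.28 (edgeR FDR 0.0322, SE 0.078). The calls were near the threshold: leaving out any 1 of the 6 libraries ended those of TRIB3 and HERPUD1, and leaving out EV 2, EV 3, KO 1 or KO 3 ended that of ATF5. With only the libraries compared, neither TRIB3 (edgeR FDR 0.0919) nor HERPUD1 (FDR 0.0993) passed, and with no filter on low counts HERPUD1 did not (FDR 0.0846). SLC7A5 (69.5, 80.2 and 83.5 CPM in EV, 53.6, 59.5 and 53.5 in KO, log2 fold change -0.48, edgeR FDR 0.0607) did not pass. It did with DESeq2 (FDR 0.0218), and in edgeR with no filter on low counts (FDR 0.000323), with only the libraries compared (FDR 0.0247) and without EV 1 (FDR 0.0369).

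In Molm-14, 2 of 37 passed in edgeR (2.4% of all genes), 1 higher (1.34% of all genes) and 1 lower (1.06%), and 9 had an unadjusted p under 0.05 (10.7%). HERPUD1 rose from 78.7, 79.3 and 74.1 CPM to 101, 101 and 111, a log2 change of 0.43 (edgeR FDR 0.00146, SE 0.080), and it passed without any 1 of the 6 libraries. SLC7A11 fell from 119, 143 and 125 CPM to 101, 97.5 and 97.8, a log2 change of -0.39 (edgeR FDR 0.00734, SE 0.085). Every KO library was under the lowest EV library in SLC7A11, and its call was lost without EV 2 (-0.31) or KO 2 (-0.38). DDIT4 had 231, 202 and 223 CPM in EV and 262, 293 and 260.4 in KO (log2 fold change 0.31, edgeR FDR 0.0676) and did not pass. It passed with DESeq2 (FDR 0.0335), and in edgeR with no filter on low counts (FDR 0.0273) and with only the libraries compared (FDR 0.0255).

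In THP-1, 0 of 37 passed in edgeR (0.0897% of all genes, 0.0552% higher and 0.0345% lower), 14 had an unadjusted p under 0.05 (8.01% of all genes), and DESeq2 called TRIB3 (FDR 0.0445) and EIF4EBP1 (FDR 0.0474). The share of all genes that DESeq2 called there is not given here. TRIB3 read 56.6, 55.0 and 54.2 CPM in EV and 74.8, 80.6 and 65.8 in KO, a log2 change of 0.42 (edgeR FDR 0.143, SE 0.095). EIF4EBP1 read 68.0, 66.5 and 65.7 CPM in EV and 92.8, 90.3 and 88.5 in KO (0.44, edgeR FDR 0.179). DDIT3 read 47.6, 38.2 and 35.0 CPM in EV and 54.9, 55.2 and 53.0 in KO (0.43, edgeR FDR 0.229). In these 3 genes every KO library was above every EV library.

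ATF4 itself read 186, 179 and 154 CPM in THP-1 EV and 231, 215 and 200.3 in KO, again without overlap (log2 fold change 0.32, edgeR FDR 0.349). CHAC1 read 1.33, 1.34 and 1.26 CPM in EV and 3.39, 2.37 and 3.01 in KO (1.14, edgeR FDR 0.349). ASNS was at 0.30. In Molm-14 the fold changes were 0.06 for ATF4, -0.19 for DDIT3, 0.07 for TRIB3, 0.30 for CHAC1 and 0.27 for ASNS. In MV4-11 they were 0.18 for ATF4, 0.02 for DDIT3, -0.10 for CHAC1 and 0.07 for ASNS. By edgeR, TRIB3 in MV4-11 was the only one of these 5 genes that passed in any of the 3 lines, and DESeq2 also called it in THP-1.

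Libraries did not overlap for more members than the calls show. In THP-1, 12 of 37 members were higher in every KO library (32.4%, against 6.8% of all genes) and 2 lower (6.79%). The 12 were ATF4, DDIT3, TRIB3, DDIT4, CHAC1, EIF4EBP1, SLC3A2, PCK2, PYCR1, SARS1, WARS1 and MARS1, and the 2 were VLDLR and SLC7A11 (114, 122 and 118 CPM in EV, 105, 98.0 and 88.0 in KO). In Molm-14, 11 were higher (29.7%, against 8.39%) and 1, SLC7A11, lower (8%). In MV4-11, 5 were higher and 5 lower (15% and 9.1% of all genes). DDIT4 and PCK2 were higher in every KO library of each of the 3 lines, HERPUD1 in MV4-11 and Molm-14, and TRIB3, SLC3A2, SARS1 and MARS1 in Molm-14 and THP-1.

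By role, the median log2 fold change in THP-1 KO was 0.181 for the regulators, 0.204 for the other effectors, 0.233 for the synthesis enzymes, 0.119 for the tRNA genes and -0.0386 for the transporters. Over all members it was 0.149, with 27 positive and 10 negative, against 0.00338 over all genes. In Molm-14 KO it was 0.0727 (25 positive, 12 negative) and in MV4-11 KO 0.023, or -0.00937 to 0.0643 with 1 library left out (21 positive, 16 negative, with STC2, NUPR1, SLC6A9 and CBS at 4 or fewer counts in each group). These medians are descriptions of lists chosen with earlier results known.

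**Figure D4:**
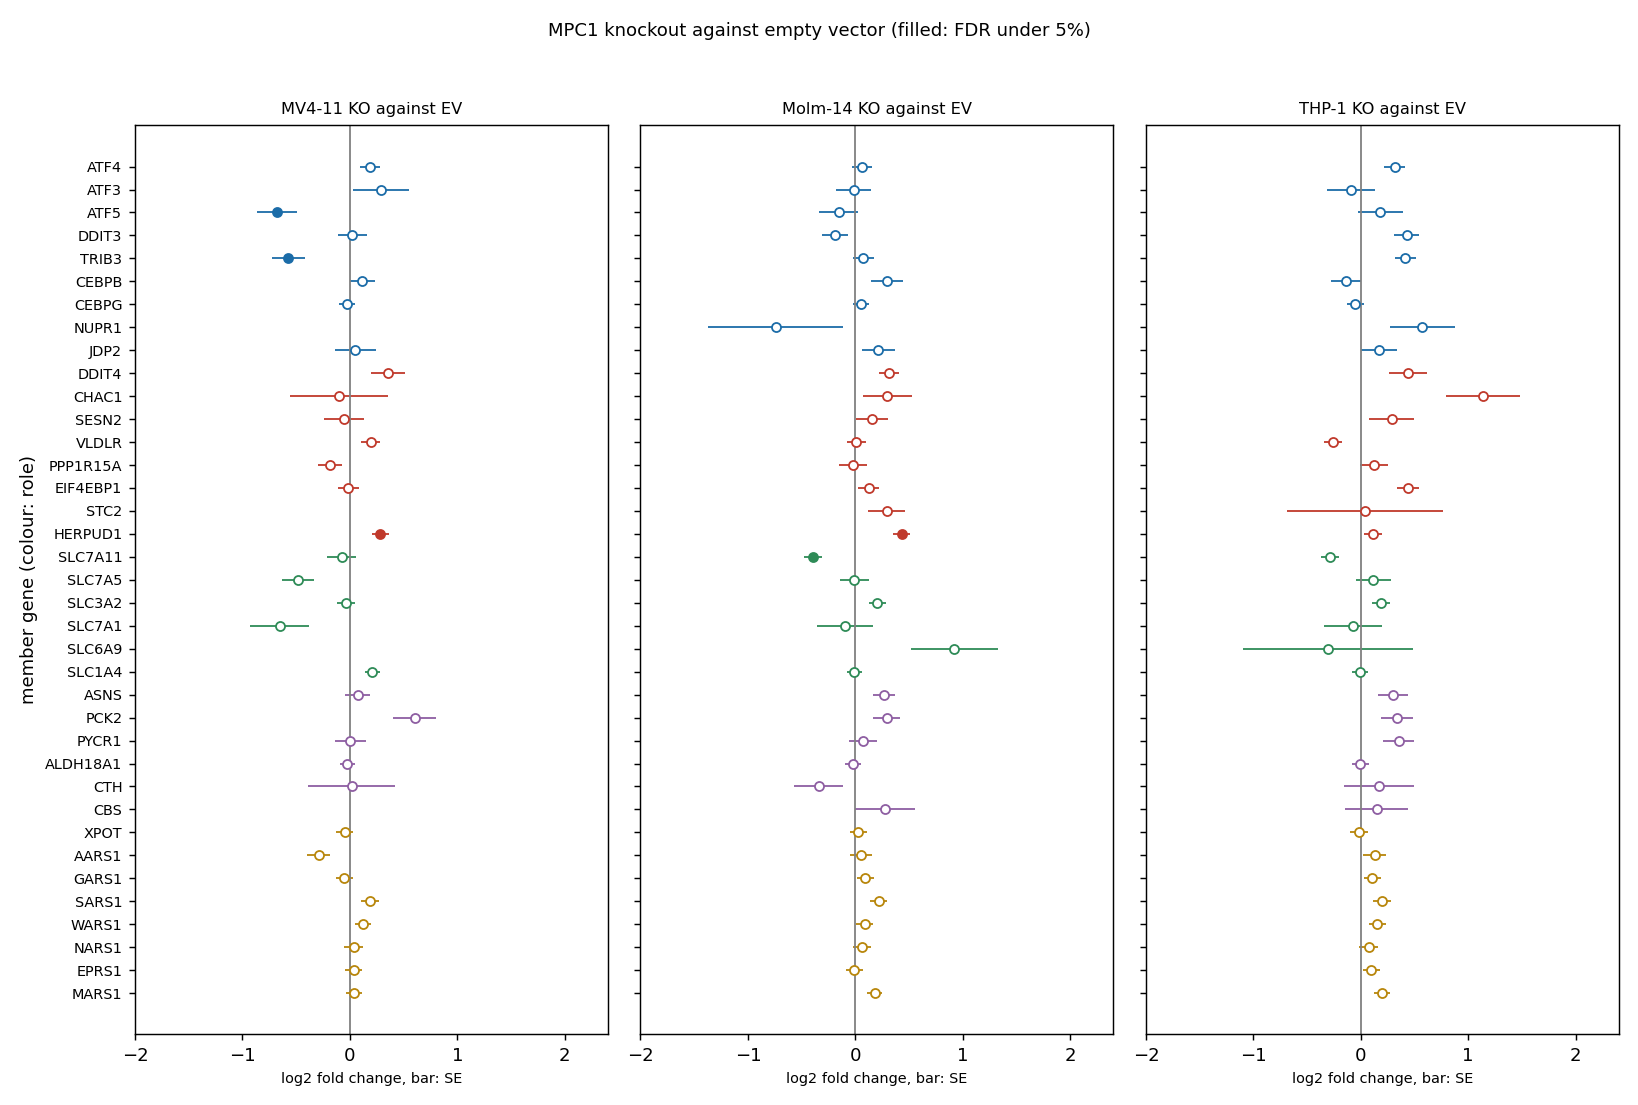
Log2 fold change of each member in KO against EV (x axis, bar: SE) in THP-1, MV4-11 and Molm-14, each in its own panel, with filled points for an FDR under 5% and colour for the role. TRIB3, ATF5 and HERPUD1 are filled in MV4-11 and HERPUD1 and SLC7A11 in Molm-14, no point is filled in THP-1, and genes with 3 or fewer counts in a group are not drawn.

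The difference of the knockout effect between lines passed for 1 member. TRIB3 differed between MV4-11 and THP-1 by -0.99 on the log2 scale (SE 0.182, edgeR FDR 0.0109), the only one of 37 called in that contrast (0.193% of all genes, 0.11% higher and 0.0828% lower), where 9 had an unadjusted p under 0.05 (9.05% of all genes). Between MV4-11 and Molm-14, 0 of 37 passed in edgeR (1.48% of all genes, 0.538% higher and 0.945% lower), with 4 at an unadjusted p under 0.05 (14.2%) and 0 by DESeq2, and TRIB3 was at -0.65 (edgeR FDR 0.0736). Between Molm-14 and THP-1, 0 of 37 passed in edgeR (0.766% of all genes, 0.518% higher and 0.248% lower), with 6 at an unadjusted p under 0.05 (7.8%) and 0 by DESeq2, and DDIT3 had the smallest p (-0.61, edgeR FDR 0.101). These contrasts share knockout and EV groups in pairs.

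Related genes outside the 37 were read from lists. The 17 genes of the eIF2 kinases and the eIF2 cycle had 0 calls in each OE and KO comparison by edgeR, with 0 to 3 at an unadjusted p under 0.05. Of 14 tested further ATF4 targets, 1 was called in MV4-11 KO, PSAT1 of serine synthesis, which fell by 0.61 (edgeR FDR 0.00187), and 0 in Molm-14 or THP-1 KO. PSAT1 also differed in its knockout effect between MV4-11 and Molm-14 (-0.88) and between MV4-11 and THP-1 (-0.82). Of 20 genes of the IRE1-XBP1 and ATF6 branches, 1 rose and 2 fell in MV4-11 KO. XBP1 rose by 0.38, and the chaperone HSPA5 fell by 0.93 and EDEM1 by 0.44 on the log2 scale. HERPUD1, known to be reached by those branches too, rose there.

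Related lists were also compared at baseline. In MV4-11 EV against Molm-14 EV of the MPC1 table, where 31.6% of all genes were lower and 30.1% higher, 9 of 14 tested ATF4 targets were lower and 3 higher. Among the lower were PHGDH of serine synthesis (log2 difference -4.59) and SHMT2 of one-carbon metabolism (-1.92). Of 16 other genes of the cytosolic tRNA synthetases and their complex, 13 were lower and 0 higher. Of 17 mitochondrial synthetases, 12 were lower and 0 higher. Of the 20 IRE1-XBP1 and ATF6 genes, 10 were higher and 4 lower in MV4-11. In THP-1 EV against Molm-14 EV, 15 of the same 16 genes of the cytosolic synthetases and their complex were lower and 1 was higher (34.1% and 35.5% of all genes).

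The remaining lists gave few calls. In both OE comparisons, edgeR called 0 genes of any list, with 0 to 2 per list at an unadjusted p under 0.05. THP-1 KO also had 0 calls in every list, with 0 to 4 per list at an unadjusted p under 0.05. The 9 mitochondrial chaperones and proteases, the 16 genes of cytosolic synthetases and their complex, and the 17 mitochondrial synthetases had 0 calls in the 3 KO comparisons. In each of these lists, 0 to 5 genes were at an unadjusted p under 0.05. Among other amino acid transporters, SLC38A1 rose (0.59) and SLC1A3 fell (-0.89) in MV4-11 KO. Of the interferon-stimulated genes OAS3 fell in Molm-14 KO (-0.97), and of the immediate-early genes KLF6 fell in MV4-11 KO (-0.60) and FOS rose in Molm-14 KO (0.91). Of the myeloid markers SPI1 fell in MV4-11 KO (-0.46), LYZ rose (0.96) and MPO fell (-1.11) in Molm-14 KO, and PECAM1 of the other cell type markers fell in MV4-11 KO (-0.50). CALR, of the IRE1-XBP1 and ATF6 list, fell in Molm-14 KO (-0.31). The part of these genes in the members' changes was not tested.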

How the data were processed

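Stranded, ribosomal RNA-depleted libraries of 30 samples were sequenced, and the authors deposited 2 tables of raw counts per gene. Tools named in the submitters' processing notes are cutadapt 1.16, STAR 2.7.6a, featureCounts 1.6.3 and DESeq2 1.30.1, with genome build GRCh38. The strand setting of the counting is not given in the sources used here, so overlapping genes on opposite strands may share reads. Groups came from the labels. Counts were filtered (filterByExpr) and scaled (TMM), and 17542 genes of the miR-1 table and 14490 of the MPC1 table were tested with edgeR 4.0.16 in R 4.3.3, by the robust quasi-likelihood test with all libraries of a table in 1 model. P-values were adjusted over all tested genes by Benjamini-Hochberg, with calls at an FDR under 5%. There were 13 comparisons: 5 of OE or KO against EV, 4 between EV groups and 4 of differences between lines. CPM used the table's normalized library sizes, and 0.5 was added before log2. A group at 0 was set to a floor of 3 counts, which covers counting error only.

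The script was tested on simulated data. For MV4-11 OE it called 66.0% of 103 genes changed by 1.0 on the log2 scale and 38.1% of 97 changed by 0.5, and for MV4-11 KO 75.5% of 102 and 45.9% of 98. Replicates of a group differed by more than counting noise in all 30 pairs. Alternatives were DESeq2 1.42.0 size factors, its Wald test, no count filter, only the libraries compared, a replicate block and leaving out each library. Leaving out MV4-11 OE 1 and EV 3 was added after seeing the data. Members and lists were chosen with earlier results of these data known. All 37 members could be named. Per comparison up to 12 that passed were given by size, or the 3 with the smallest p where fewer than 3 passed, and ATF4, DDIT3, TRIB3, CHAC1 and ASNS were always given. Up to 3 called genes per other list were named.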

Additional observations from a re-analysis of the deposited data

Results flagged for a closer look

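The knockout effect on TRIB3 differed between MV4-11 and THP-1 by -0.99 on the log2 scale (SE 0.182, edgeR quasi-likelihood interaction, FDR 0.0109). TRIB3 was lower in 3 of 3 MV4-11 KO libraries than in any MV4-11 EV library and higher in 3 of 3 THP-1 KO libraries than in any THP-1 EV library. Leaving out 1 library at a time gave -1.09 to -0.89, with an edgeR FDR of 0.00739 to 0.0565, and the call was lost only without MV4-11 KO replicate 3.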

How the results depend on the processing

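Of the 13 counts of called members, those of the EV baselines stayed within 1.5 times of the value reported under each other setting, filter, tool and left-out library, except the miR-1 table baseline, at 31 without both MV4-11 OE 1 and EV 3, a setting added after seeing the data. Leaving out 1 library gave 15 to 24 calls there and 33 to 34, 25 to 27 and 29 to 31 in the MPC1 table. With no filter on low counts, the count became 1 in MV4-11 OE, 1 in THP-1 KO, 1 for the knockout effect in MV4-11 against Molm-14 (SLC7A5) and 2 against THP-1. DESeq2's Wald test called 5 members in MV4-11 KO, 4 in Molm-14 KO and 2 in THP-1 KO. The shares of all genes called under the alternative settings of this section are not given here, so their counts of members are not set against a background. Only the libraries compared gave 1 in Molm-14 OE. With 1 library left out, counts ran from 0 to 3 in MV4-11 KO, 1 to 2 in Molm-14 KO, 0 to 1 for the knockout effect in MV4-11 against Molm-14, 0 to 2 in MV4-11 against THP-1 and 0 to 1 in Molm-14 against THP-1. In MV4-11 OE, leaving out 1 library turned the sign of ATF4 (-0.12 to 0.29), DDIT3 (-0.60 to 0.68), TRIB3 (-1.17 to 1.68), CHAC1 (-0.66 to 1.73) and ASNS (-0.71 to 0.24), and DDIT3 was at 0.11 without both libraries that stood apart. The cause of these changes was not tested. Same-numbered libraries did not deviate together in every pair of any line (correlations of -0.346 to 0.288, where 0.1 was needed), so the numbers were not taken as pairs. The replicate block put DDIT3 at 0.022 in MV4-11 OE. In THP-1, 5 of 6 libraries correlated best with their own number. The replicate block gave 5 calls in MV4-11 KO and 1 for the knockout effect in MV4-11 against Molm-14. Depth limits STC2, NUPR1, SLC6A9 and CBS in MV4-11 of the MPC1 table, where no group had more than 4 counts of any of them.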
